A study of Mus musculus and Sus scrofa with 30 samples.

Results

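Collagen chain genes encode the polypeptides that fold into collagen, the main protein family of the extracellular matrix. They were followed across bulk RNA sequencing of 2 cell systems on day 5 of adipogenic differentiation. A chain was taken as a protein-coding gene whose symbol reads Col, a number, a and a number, ignoring case. By that rule 41 of 24843 genes were collagen chains in the mouse 3T3-L1 table and 40 of 34307 in the porcine DFAT table, and 37 symbols stood in both. Each system had 5 groups of 3 libraries: the solvent DMSO (vehicle), dicoumarol, magnolol, dicoumarol plus magnolol, and rosiglitazone. Dicoumarol is a coumarin anticoagulant that blocks vitamin K recycling, magnolol is a lignan of magnolia bark, and rosiglitazone is a synthetic agonist of the adipogenic receptor PPARG. Doses of the compounds were not given in the sources used here. All 3T3-L1 groups, the vehicle included, received 0.75 µg/mL insulin, 75 nM dexamethasone, 37.5 µM of the phosphodiesterase inhibitor IBMX and 10% fetal bovine serum. All DFAT groups received 20 µM biotin, 10 µM pantothenate, 0.5 µM dexamethasone and 12.5 µM IBMX in 2% serum, so medium and species differ together between the systems. 3T3-L1 is an established mouse embryonic fibroblast line that turns into fat cells on induction. DFAT cells are fibroblast-like cells obtained by letting mature fat cells, here from porcine subcutaneous fat, lose their lipid in culture. The labels do not say that replicates were separate cultures or pigs, so the p-values below measure the spread between these libraries only.

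Collagens are trimers of chains that are hydroxylated and folded in the endoplasmic reticulum, trimmed outside the cell and cross-linked. Fibrillar collagens, such as types I, III and V, form the rope-like fibers of loose connective tissue. Network collagens, with type IV at their center, form the sheet of basement membrane that surrounds each mature fat cell. Beaded-filament collagen, type VI, links cells to the matrix and is known for its abundance in adipose tissue. The other chains include fibril-associated collagens (types XII, XIV and XVI), the basement membrane zone proteoglycans of types XV and XVIII, and transmembrane chains. Conversion of a fibroblast-like precursor into a fat cell is known to go with a shift from fibrillar to basement membrane matrix.

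The values are counts per gene divided by a size factor for each library, called normalized counts here. The 3T3-L1 libraries had an estimated depth of 22.8 M to 30.7 M reads, and the DFAT libraries 44.8 M to 70.5 M. Differences were tested with limma on log2(normalized count + 1) over all genes with a mean of at least 10, and a gene is said to rise or fall where its Benjamini-Hochberg adjusted p was under 0.05. Of the 10 fibroblast and preadipocyte markers, all had a mean of at least 10 in 3T3-L1 cells. The summed level of 15 adipocyte markers ran from 54449 to 73362 in the 3T3-L1 vehicle libraries and from 359711 to 610655 with rosiglitazone. Endothelial markers summed to at most 29.5 in any 3T3-L1 library, and none of the 5 with a row in the table, of 7 listed, reached the mean of 10. Macrophage and leukocyte markers had 4 of 8 with a row in 3T3-L1 cells, and all 4 reached that mean. They summed to between 405 and 430 with vehicle and between 172 and 210 with rosiglitazone. In DFAT cells the 7 endothelial markers summed to between 427 and 753, and 2 of them had a mean of at least 10. Macrophage and leukocyte markers, 6 of 8 with a row, summed to between 669 and 1036, and 2 had such a mean. Epithelial markers, 5 of 6 with a row, summed to at most 16.7, and 0 had such a mean. Within these lists KDR (endothelium), CD3E (T cells) and CDH1 (epithelium) were listed at 0 in all 15 libraries. The adipocyte sum ran from 25232 to 27145 in the DFAT vehicle libraries, from 47576 to 54722 with magnolol, from 75049 to 80787 with both compounds and from 95803 to 104382 with rosiglitazone. In bulk libraries fewer cells of a type and less RNA per cell cannot be told apart.

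Promoter sequence was at hand for the mouse genes only. RefSeq gave promoters for 33 of the 41 mouse members, in 36 entries on build GRCm38.p6, and the 250 bases before each gene start were searched on both strands for 4 motifs. TATAAA, the TATA box, stood in 4 of the 36 entries and in 12.4% of 32851 mouse promoters. CCAAT, the CCAAT box, stood in 13 entries and in 33.8% of all, and GGGCGG, the GC box bound by Sp1-type factors, in 21 entries and in 32.7% of all. The half-site AGGTCA repeated after 1 base of any kind, the DR1 element recognized by PPARG with its partner RXR, stood in none of the 36 and in 0.0335% of all promoters. These letters being absent from this window says nothing of binding elsewhere. The promoters printed here belong to 2 chains that fell in 3T3-L1 cells with rosiglitazone (Col1a2, Col3a1) and to the 2 that rose (Col6a3, Col15a1). Capitals mark the motif matches: 2 GC boxes and 1 CCAAT box in Col1a2 (chr6:4505368-4505617, plus strand), 1 TATA box in Col3a1 (chr1:45311288-45311537, plus strand), and no match in Col6a3 (chr1:90843972-90844221, minus strand) or Col15a1 (chr4:47207762-47208011, plus strand). Matches describe the letters and are not shown to be used.
Col1a2: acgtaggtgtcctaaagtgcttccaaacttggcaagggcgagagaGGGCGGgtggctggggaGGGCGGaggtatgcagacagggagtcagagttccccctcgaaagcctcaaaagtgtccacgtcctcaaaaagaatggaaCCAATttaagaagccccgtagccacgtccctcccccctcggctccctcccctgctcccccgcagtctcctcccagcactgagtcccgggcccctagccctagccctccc
Col3a1: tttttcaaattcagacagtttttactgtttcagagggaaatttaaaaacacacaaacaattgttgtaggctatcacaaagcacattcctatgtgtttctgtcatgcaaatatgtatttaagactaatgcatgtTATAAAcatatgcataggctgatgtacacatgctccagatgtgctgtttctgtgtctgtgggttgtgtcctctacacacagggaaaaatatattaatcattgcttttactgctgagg
Col6a3: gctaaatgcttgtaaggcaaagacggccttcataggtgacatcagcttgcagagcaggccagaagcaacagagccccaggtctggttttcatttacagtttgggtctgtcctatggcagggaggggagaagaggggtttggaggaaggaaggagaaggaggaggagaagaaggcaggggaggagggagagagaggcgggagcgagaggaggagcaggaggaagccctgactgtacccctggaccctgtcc
Col15a1: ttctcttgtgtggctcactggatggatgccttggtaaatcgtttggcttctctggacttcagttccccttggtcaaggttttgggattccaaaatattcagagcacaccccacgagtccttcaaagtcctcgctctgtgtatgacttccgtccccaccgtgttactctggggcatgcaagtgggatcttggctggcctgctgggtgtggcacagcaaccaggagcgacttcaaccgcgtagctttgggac

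A few chains carried most of the collagen count. Over all 15 libraries of a system the 5 largest chains held 62.8% of the summed collagen count in 3T3-L1 cells and 78.5% in DFAT cells. These shares, and the class shares and ranks below, rest on counts not divided by gene length. Levels per length were compared in the mouse only, where the GENCODE M21 annotation gave exon lengths. In the 3T3-L1 vehicle libraries the level per kilobase of exon was highest for the type VI chain Col6a1, at 21294 ± 1745 (SD, n = 3), followed by the type IV chain Col4a1 at 16880.2 ± 1423 and the type I chain Col1a1 at 14633 ± 1862. Next in order stood Col4a2 at 12132 ± 1788, Col1a2 at 11716 ± 356 and Col3a1 at 9867 ± 973. The SDs of neighbours overlapped from Col4a1 to Col1a2, so their order there is not settled. Exon length here was the union of all annotated exons of a gene, which can exceed the length of any single transcript. It was 4380 bp for Col6a1 and 12426 bp for Col1a2, whose undivided vehicle means were 93265.5 and 145580. The order thus depends on the length used. Lower per kilobase were Col6a2 at 8572 ± 863, Col6a3 at 5424 ± 477, Col5a1 at 3470.3 ± 137 and Col5a2 at 1821 ± 166. Col4a5, Col12a1, Col5a3, Col16a1, Col18a1 and Col11a1 followed, from 879.7 down to 304 per kilobase. Gene positions below are as the deposited tables list them. The deposited mouse starts equal those of GENCODE M21, on GRCm38, for 3 of the 41 chains, so the build behind these positions is not settled and they are not on the scale of the promoter positions above.

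The collagen share of all normalized counts was above vehicle in 3 DFAT groups and below it with rosiglitazone in 3T3-L1 cells, while the DFAT rosiglitazone libraries overlapped vehicle. In DFAT cells collagen chains made up 6.93% ± 0.39 (SD, n = 3) of all counts with vehicle, 8.47% ± 0.11 with dicoumarol, 9.52% ± 0.41 with magnolol, 9.21% ± 0.29 with both compounds and 6.39% ± 0.45 with rosiglitazone. Every library of the dicoumarol, magnolol and combination groups lay above every vehicle library. The fibrillar class accounted for nearly all of that difference: it went from 4.67% ± 0.23 with vehicle to 6.15% ± 0.059, 7.10% ± 0.33 and 6.91% ± 0.27 in those 3 groups and to 4.01% ± 0.18 with rosiglitazone. Network chains held between 1.44% and 1.56% on average in all 5 DFAT groups, and beaded chains between 0.556% and 0.651%. In 3T3-L1 cells the share was 3.20% ± 0.11 with vehicle, 3.11% ± 0.18 with dicoumarol, 3.18% ± 0.19 with magnolol, 3.00% ± 0.10 with both and 2.54% ± 0.39 with rosiglitazone. There the fibrillar class went from 1.49% ± 0.076 to 0.993% ± 0.17 with rosiglitazone, while the beaded class held 0.866% ± 0.075 and 0.897% ± 0.13. Shares depend on all other genes. Mitochondrial genes held 6.19% ± 0.90 of 3T3-L1 counts with vehicle and 11.2% ± 3.3 with rosiglitazone, where libraries ran from 7.7% to 14.3%. In DFAT cells they held 9.83% ± 0.36 with vehicle and 13.3% ± 1.6 with both compounds. Over nuclear protein-coding genes alone the collagen share was 3.79% with vehicle and 3.24% with rosiglitazone in 3T3-L1 cells. In DFAT cells it was 7.84% with vehicle, 9.74% with dicoumarol, 11.0% with magnolol, 10.8% with both and 7.18% with rosiglitazone. The part of mitochondrial genes in the result was not tested.

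**Figure D1:**
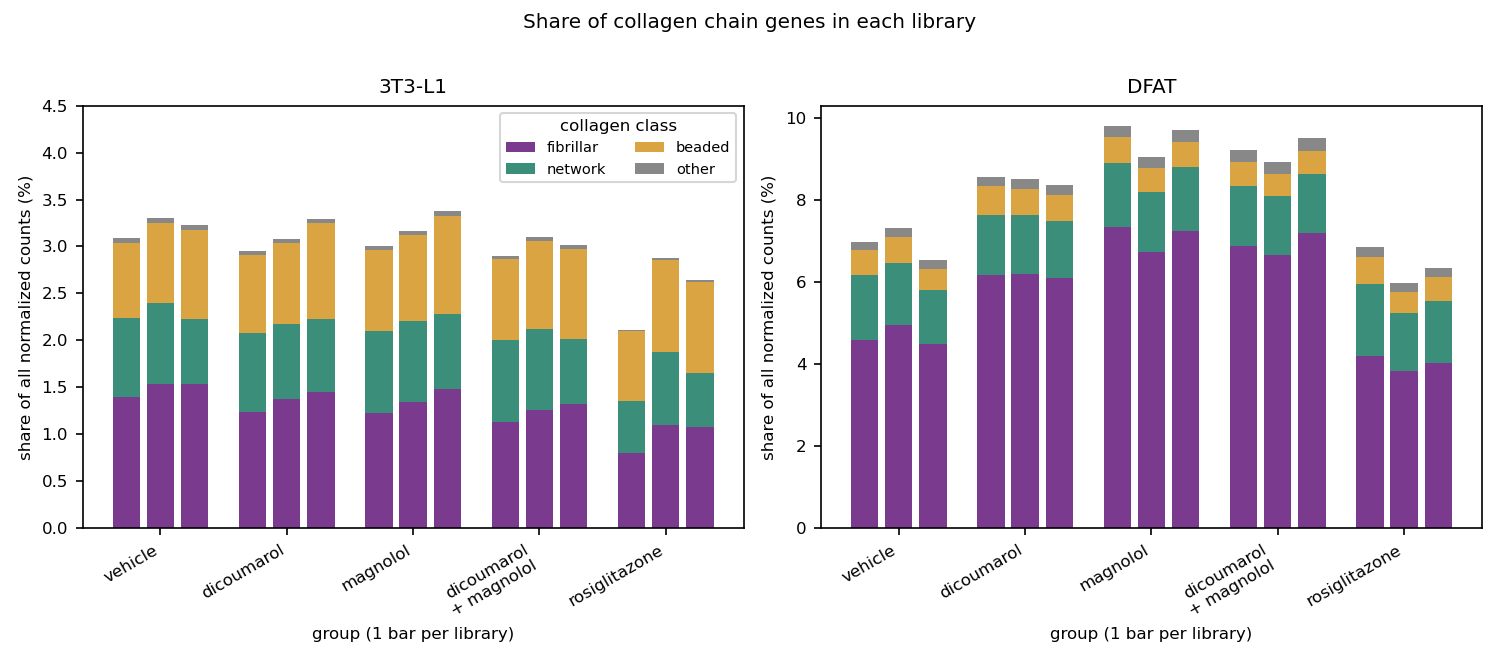
Stacked bars give, for each of the 15 libraries per system, the percentage of all normalized counts held by fibrillar, network, beaded and other collagen chains, grouped by treatment. In DFAT cells the fibrillar segment is tallest with magnolol, dicoumarol plus magnolol and dicoumarol, and the network segment is of similar height throughout. In 3T3-L1 cells the bars of the rosiglitazone group are shorter, mainly in the fibrillar segment.

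Not every member could be tested. In 3T3-L1 cells 29 of the 41 chains had a mean of at least 10: 9 of 11 fibrillar, 7 of 9 network, 3 of 6 beaded and 10 of 15 other chains. The 12 below it (Col14a1, Col2a1, Col19a1, Col9a1, Col24a1, Col6a4, Col10a1, Col6a6, Col25a1, Col4a4, Col22a1 and Col6a5) never exceeded 13.3 in any library. In DFAT cells 23 of the 40 were tested: 9 of 11 fibrillar, 5 of 9 network, 2 of 4 beaded and 7 of 16 other chains. The 17 below it (COL11A2, COL21A1, COL9A1, COL10A1, COL22A1, COL13A1, COL17A1, COL6A5, COL28A1, COL4A4, COL4A3, COL2A1, COL8A2, COL6A6, COL25A1, COL9A3 and COL19A1) never exceeded 14.7. COL22A1 and COL6A5 were listed at 0 in all 15 DFAT libraries. COL14A1, a fibril-associated chain, was thus tested in the porcine cells alone. COL6A2 was not among the 4 beaded members of the porcine table and was not analysed there. The DFAT collagen and beaded shares thus do not include it.

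Dicoumarol, magnolol and their combination raised collagen chains in DFAT cells, and rosiglitazone lowered them in 3T3-L1 cells. In DFAT cells 5 of 23 chains rose with dicoumarol and none fell, against 1.94% of all genes called in either direction (0.911% higher, 1.03% lower). With magnolol 11 of 23 rose and none fell (4.22% of all genes called, 2.96% higher and 1.27% lower). The combination raised 11, the same 11 chains as magnolol, and lowered 1 (10.2% called, 6.11% higher and 4.06% lower). With every library scaled to the same total count 11 chains were called higher and 3 lower with the combination. The share of all genes called under that scaling is not given here. Rosiglitazone raised 2 DFAT chains and lowered 5, where 10.8% of all genes were called, 5.8% higher and 5.02% lower. In 3T3-L1 cells 2 of 29 chains rose and 13 fell with rosiglitazone, where 40.1% of all genes were called, 20.3% higher and 19.9% lower. No 3T3-L1 chain passed with dicoumarol (0% of all genes called), with magnolol (1.23%) or with both (5.22%). At an unadjusted p under 0.05 in limma stood 1, 2 and 7 chains in that order. The share of all genes at that unadjusted threshold was not counted, so these chain counts have no background. The 4 treated groups of a system share the same 3 vehicle libraries, so these comparisons are not independent of each other.

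In DFAT cells the median log2 fold change of the tested chains against vehicle was 0.25 with dicoumarol, 0.56 with magnolol, 0.55 with both and -0.13 with rosiglitazone. In 3T3-L1 cells it was -0.05, -0.03, -0.09 and -0.35 in that order. The median of all genes lay within 0.011 of 0 in each of these 8 comparisons. In 3T3-L1 cells libraries with the same replicate number deviated together, so limma was also run with the number as a blocking term, and chains whose call differs are given with both values. With that block 2 chains rose and none fell with magnolol, where 4.96% of all genes were called (3.52% higher, 1.44% lower). With the combination 2 rose and 4 fell (13.5% of all genes called, 8.03% higher and 5.48% lower), and with rosiglitazone 5 rose and 16 fell (49.8% called, 24.4% higher and 25.4% lower). The block thus called more of all genes as well.

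**Figure D2:**
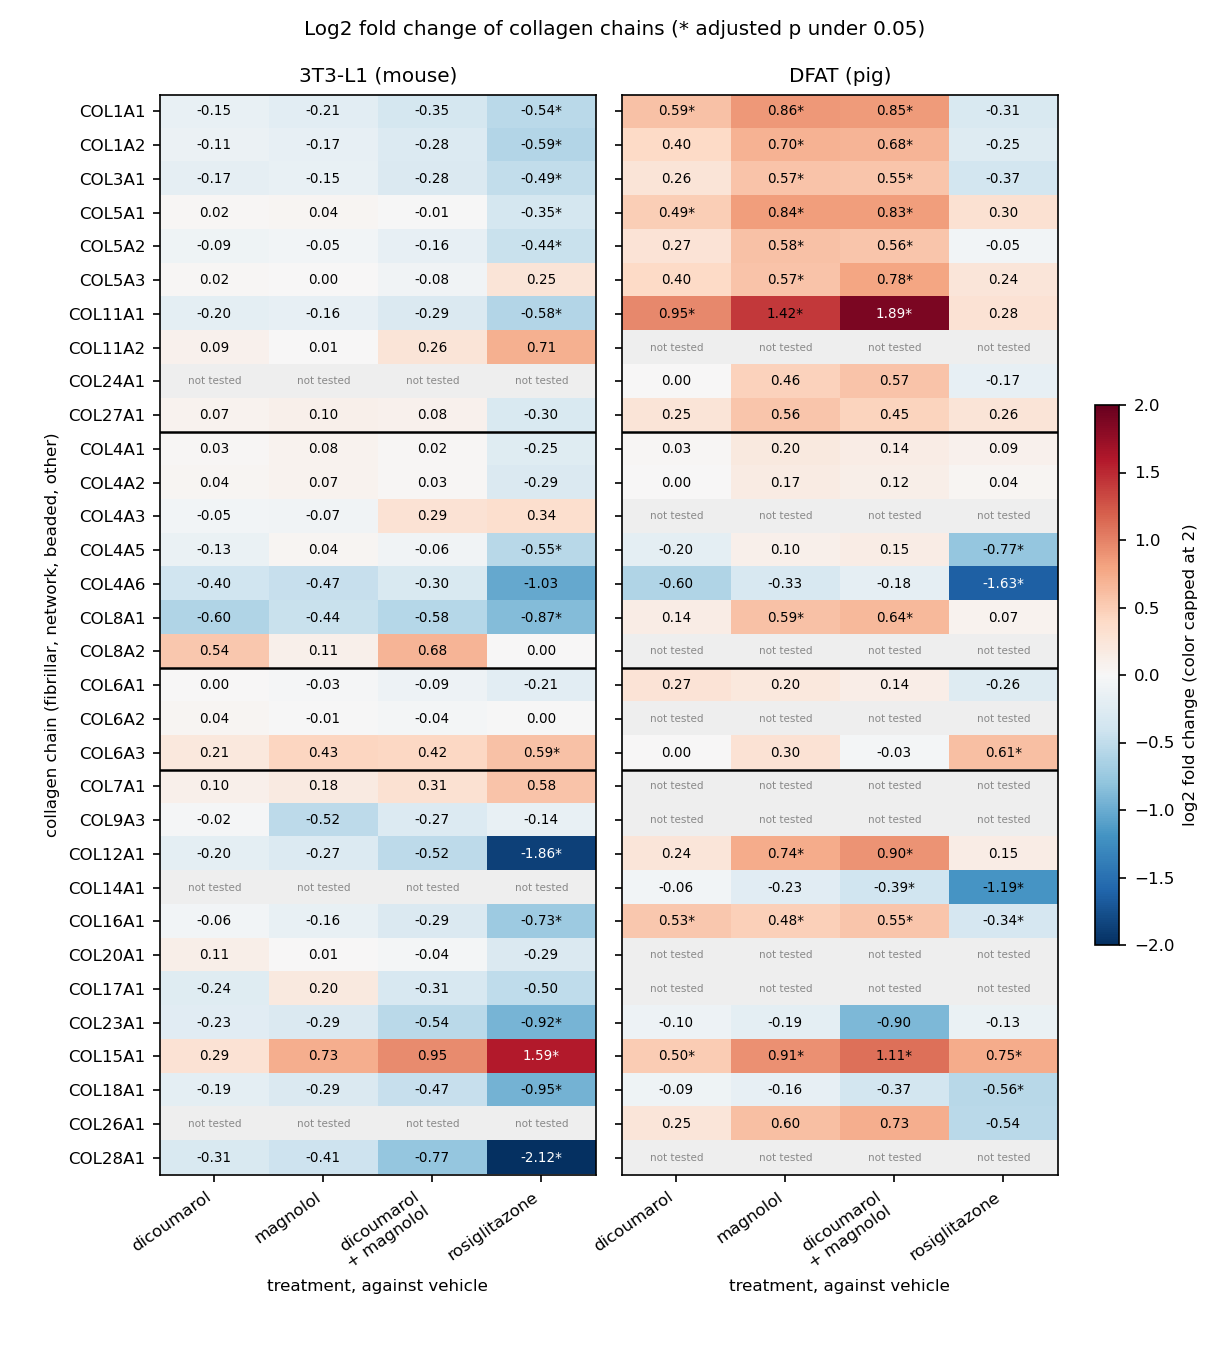
Each cell gives the log2 fold change of a collagen chain against vehicle in limma, for 4 treatments in 3T3-L1 cells and in DFAT cells, with chains ordered by class; asterisks mark an adjusted p under 0.05 and the color is capped at 2. The DFAT columns for dicoumarol, magnolol and the combination hold the 5, 11 and 11 raised chains, and the 3T3-L1 rosiglitazone column holds the 13 lowered ones.

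Type I collagen, made of the products of COL1A1 and COL1A2, is the bulk of connective tissue fibers. COL1A1 (chr12:26379090-26397004, minus strand, in the pig) stood at 1062900, 1084530 and 970133 in the DFAT vehicle libraries, at 1621690, 1569430 and 1502530 with dicoumarol and at 2040520, 1707620 and 1929480 with magnolol. Its level was 1860210, 1729010 and 2020960 with both compounds and 895681, 788290 and 829871 with rosiglitazone. All 9 libraries with dicoumarol, magnolol or both lay above every vehicle library, and the 3 rosiglitazone libraries lay below. The log2 fold change was 0.59 with dicoumarol (limma, SE 0.13, adjusted p = 0.0264), 0.86 with magnolol (adjusted p = 0.000728) and 0.85 with both (adjusted p = 0.000378). With rosiglitazone it was -0.31 (adjusted p = 0.179), which did not pass. COL1A2 (chr9:74173931-74210397, plus strand), on another chromosome, gave 746846, 775750 and 759979 with vehicle, 1003770, 1014450 and 1000550 with dicoumarol and 1281140, 1118380 and 1309260 with magnolol. The combination gave 1207030, 1144620 and 1320000 and rosiglitazone 645955, 608687 and 662234. No treated group overlapped vehicle for this chain either, and rosiglitazone alone lay below it. COL1A2 rose by 0.70 with magnolol (limma, adjusted p = 0.00140) and 0.68 with both (adjusted p = 0.000770), and the 0.40 with dicoumarol did not pass (adjusted p = 0.112).

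In 3T3-L1 cells the same pair fell with rosiglitazone. Col1a1 (chr11:94827050-94843868, plus strand, in the mouse) stood at 89652, 88329 and 110125 with vehicle, 75323, 88964 and 95016 with dicoumarol and 74976, 82034 and 91318 with magnolol. Levels of 66994, 77232 and 82107 followed with both compounds and 56019.7, 69252 and 73416 with rosiglitazone. The combination and rosiglitazone libraries all lay below the vehicle libraries, and the groups with 1 compound alone overlapped them. Col1a1 fell by 0.54 on the log2 scale with rosiglitazone (limma, SE 0.14, adjusted p = 0.00730). Its change with both compounds was -0.35 (adjusted p = 0.216, and 0.0166 with the replicate block). Col1a2 (chr6:4504814-4541544, plus strand) gave 141119, 149955 and 145666 with vehicle, 123338, 138656 and 143348 with dicoumarol and 118625, 129558 and 140671 with magnolol. It gave 109294, 123968 and 126993 with both and 77119, 111076 and 104985 with rosiglitazone. Every magnolol, combination and rosiglitazone library lay below every vehicle library, and rosiglitazone replicate 1 was the lowest of the 15. Col1a2 fell by 0.59 with rosiglitazone (limma, adjusted p = 0.00383).

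Type III collagen, encoded by COL3A1, mixes with type I in soft tissue fibers. In DFAT cells COL3A1 (chr15:93526603-93596363, plus strand) gave 508355, 547020 and 520847 with vehicle, 602848, 641349 and 637323 with dicoumarol and 736142, 731495 and 878631 with magnolol. The combination brought 705003, 713193 and 900387 and rosiglitazone 407987, 389774 and 419408. No treated group overlapped vehicle, and rosiglitazone was the only group below it. COL3A1 rose by 0.57 with magnolol (limma, adjusted p = 0.00814) and 0.55 with both (adjusted p = 0.00587). Its changes of 0.26 with dicoumarol and -0.37 with rosiglitazone did not pass (adjusted p = 0.481 and 0.0553). In 3T3-L1 cells Col3a1 (chr1:45350698-45388866, plus strand) gave 86844, 105870 and 97840.4 with vehicle, 76118, 87859 and 93964 with dicoumarol and 75965, 86145 and 99928 with magnolol. It stood at 72281, 75761 and 90822 with both compounds and at 57164, 73603 and 77839 with rosiglitazone. Only the rosiglitazone libraries lay wholly below vehicle. Col3a1 fell by 0.49 (limma, adjusted p = 0.0177). Leaving out vehicle replicate 2 ended that call (adjusted p = 0.0703), as did leaving out rosiglitazone replicate 1 (0.0832).

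**Figure D3:**
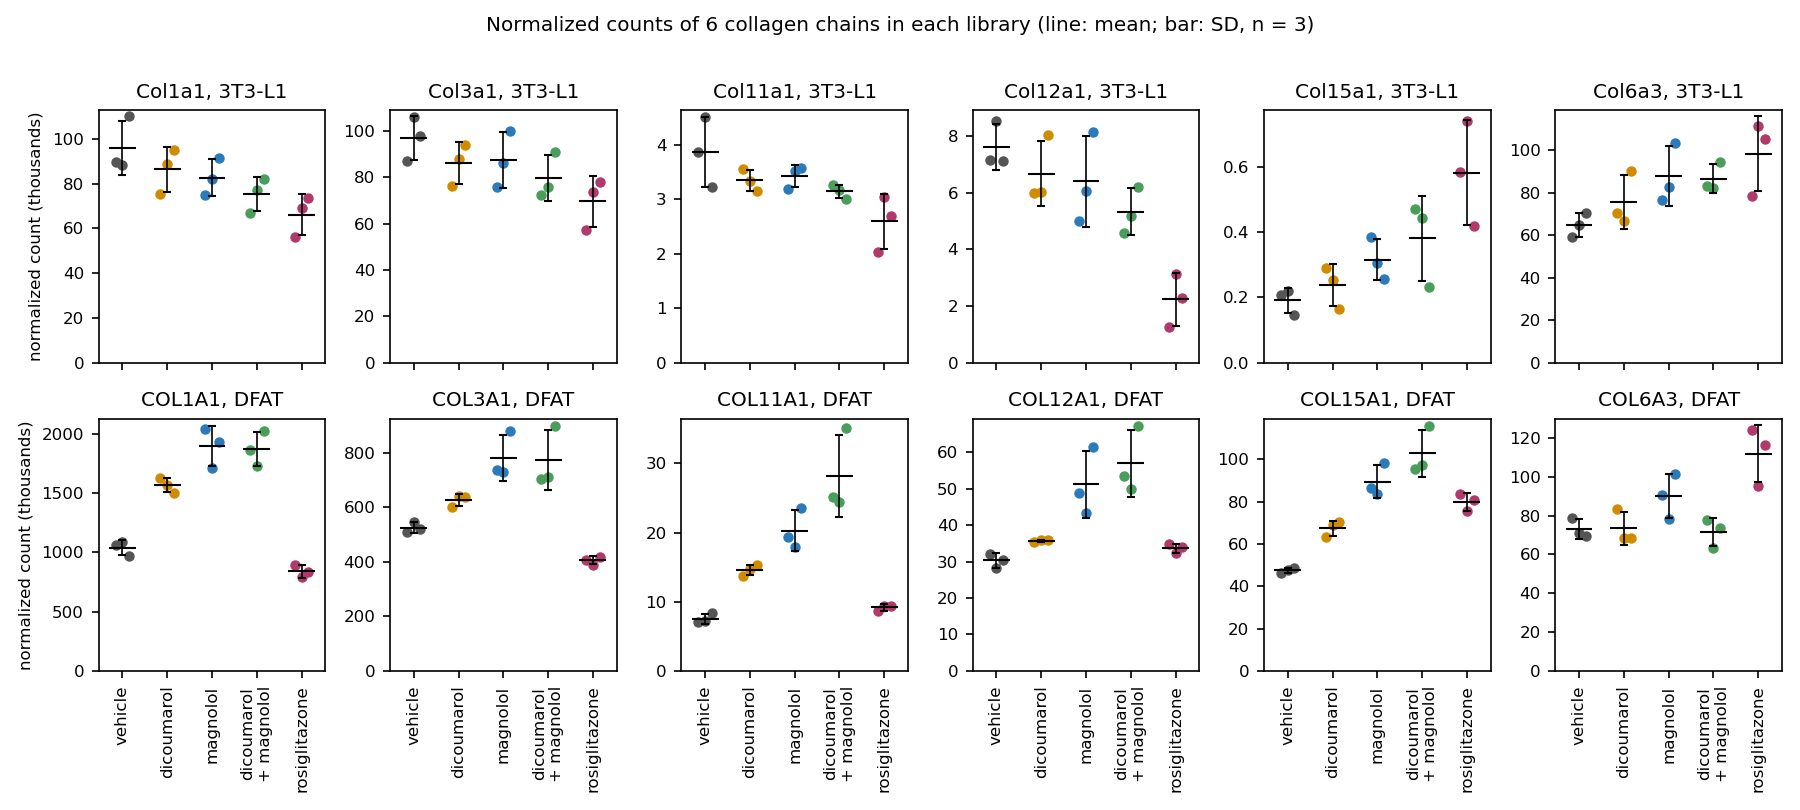
Points give the normalized count (axis from 0) of 6 collagen chains in each library of 3T3-L1 cells (upper panels) and DFAT cells (lower panels) by group, with the mean as a line and the SD as a bar (n = 3). In DFAT cells COL1A1, COL3A1, COL11A1, COL12A1 and COL15A1 lie above vehicle with magnolol and with the combination, and COL6A3 is highest with rosiglitazone. In 3T3-L1 cells Col12a1 is lowest and Col15a1 highest with rosiglitazone.

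Type V collagen starts and limits the width of type I fibers, and its chains COL5A1, COL5A2 and COL5A3 rose with magnolol in DFAT cells. COL5A1 (chr1:273971971-274085111, plus strand) gave 174253, 170394 and 158299 with vehicle, 239431, 231453 and 233844 with dicoumarol and 320130, 264526 and 319796 with magnolol. With both compounds it gave 294349, 276884 and 325567, and with rosiglitazone 224126, 187059 and 208631. All 12 treated libraries lay above every vehicle library. COL5A1 rose by 0.49 with dicoumarol (limma, adjusted p = 0.0142), 0.84 with magnolol (adjusted p = 4.53e-05) and 0.83 with both (adjusted p = 2.29e-05), and the 0.30 with rosiglitazone did not pass (adjusted p = 0.0696). COL5A2, the neighbour of COL3A1 at a distance of 15492 bp, gave 204572, 205355 and 208940 with vehicle, 245128, 250979 and 252077 with dicoumarol and 306634, 278567 and 345411 with magnolol. Its levels were 288102, 274455 and 353191 with both and 205657, 180086 and 212641 with rosiglitazone. Rosiglitazone overlapped vehicle, and the other groups lay above it. COL5A2 rose by 0.58 with magnolol and 0.56 with both (limma, adjusted p = 0.00303 and 0.00222). COL5A3 gave 14774, 15269 and 12585 with vehicle, 19389, 18313 and 18203 with dicoumarol and 20407, 20485 and 22075 with magnolol. Higher still were the 25168, 22635 and 25321 with both compounds, against 20071, 14024 and 16757 with rosiglitazone. The combination libraries lay above all others, and rosiglitazone overlapped vehicle. COL5A3 rose by 0.57 with magnolol and 0.78 with both (limma, adjusted p = 0.00233 and 4.75e-05).

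In 3T3-L1 cells the type V chains split. Col5a1 (chr2:27776437-27929526, plus strand) gave 28949.6, 30791 and 28647 with vehicle, 28058, 29784 and 31584 with dicoumarol and 29081, 29348 and 32621 with magnolol. Both compounds gave 28808, 29891 and 29009 and rosiglitazone 19196, 26299.9 and 24462. Only the rosiglitazone libraries stood apart, below all 12 others. Col5a1 fell by 0.35 (limma, adjusted p = 0.0185). Leaving out vehicle replicate 2 (0.0612) ended that call, as did leaving out rosiglitazone replicate 1 (0.0902). Col5a2 gave 16075, 19201 and 17109.6 with vehicle, 15530.2, 16283 and 17485 with dicoumarol and 15083, 16645 and 18906 with magnolol. Its combination libraries held 14802, 15172 and 16884 and its rosiglitazone libraries 10518, 14054 and 14194. Rosiglitazone again lay below every other library, and Col5a2 fell by 0.44 (limma, adjusted p = 0.00874). Col5a3 gave 3616, 3047 and 3057 with vehicle, 3597, 3025 and 3226 with dicoumarol and 3588, 2970.1 and 3165 with magnolol. The remaining groups gave 3487, 2753 and 3001 with both and 4368, 3573 and 3653 with rosiglitazone. Replicate 1 was the highest of each group for this chain, and rosiglitazone overlapped vehicle. Col5a3 changed by 0.25 with rosiglitazone, which did not pass without the block (limma, adjusted p = 0.0899) and did with it, so it did not share the fall of Col5a1 and Col5a2.

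COL11A1, a fibril-forming chain of cartilage that also assembles with type V chains, showed the largest difference from vehicle among the DFAT chains. COL11A1 (chr4:115634172-115840708, plus strand) gave 7009, 7249 and 8375 with vehicle, 13771, 14674 and 15299 with dicoumarol and 19298, 17979.5 and 23583 with magnolol. Both compounds together gave 25127, 24373 and 35064, and rosiglitazone 8655, 9411 and 9448. The vehicle, dicoumarol, magnolol and combination groups followed one another with no overlap, and rosiglitazone lay just above vehicle. COL11A1 rose by 0.95 with dicoumarol (limma, SE 0.12, adjusted p = 0.000161), 1.42 with magnolol (adjusted p = 7.30e-07) and 1.89 with both (adjusted p = 9.35e-09). In 3T3-L1 cells Col11a1 gave 3876, 4512 and 3225 with vehicle, 3550.2, 3347 and 3153 with dicoumarol and 3197, 3522 and 3569 with magnolol. Its level was 3261, 3167 and 3015 with both and 2041, 3054 and 2691 with rosiglitazone. Only rosiglitazone lay wholly below vehicle, and Col11a1 fell by 0.58 (limma, adjusted p = 0.00255). The other fibrillar chains with a test did not pass against vehicle: Col11a2 (200.3 to 729 over the 15 libraries) and Col27a1 (602 to 1290.3) in 3T3-L1 cells, and COL24A1 (41.3 to 86.3) and COL27A1 in DFAT cells. With the replicate block Col11a2 rose (0.71, adjusted p = 0.00744) and Col27a1 fell (-0.30, adjusted p = 0.0169) with rosiglitazone in limma, and Col11a2 also passed without rosiglitazone replicate 2 (1.08, adjusted p = 0.00285).

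Counted by class, 3 of 9 fibrillar chains rose with dicoumarol in DFAT cells (0.911% of all genes were called higher), 7 of 9 with magnolol (2.96%) and 7 of 9 with both (6.11%), and none passed with rosiglitazone (10.8% called in either direction). The fibrillar medians in that order were 0.40, 0.58, 0.68 and -0.05. In 3T3-L1 cells 6 of 9 fibrillar chains fell with rosiglitazone, where 19.9% of all genes fell, with a median of -0.44. Calls for the most abundant DFAT chains depended on the kind of normalization. Scaling every library to the same total kept all 50 chain calls against vehicle, counted over both systems. So did the same total of genes other than collagen chains. Quantile normalization, which gives every library the same set of values by rank, ended the calls of COL1A1 with dicoumarol (log2 fold change 0.0936, limma adjusted p = 0.904), with magnolol (0.28, 0.329) and with both (0.19, 0.447). It also ended that of COL5A1 with dicoumarol (0.29, 0.142) and those of COL1A2, COL3A1 and COL5A2 with magnolol and with both. With no filter on scarce genes the calls of COL1A1 and COL5A1 with dicoumarol (adjusted p = 0.272 and 0.0688) and of COL3A1 with magnolol (0.0687) were lost. COL1A1 ranked between 3 and 5 among all genes in every DFAT library. Of the 10 calls against vehicle that quantile normalization ended, 3 took the opposite sign. These were COL3A1 with magnolol and with both, and COL1A2 with both. Why these calls ended was not tested. The fit on the vehicle and rosiglitazone libraries alone called 10 of 29 chains in 3T3-L1 cells and lost Col1a1 (0.0520), Col1a2 (0.0505), Col3a1 (0.0770), Col5a1 (0.111) and Col4a5 (0.0770). Without any single one of the 6 libraries compared, the DFAT COL1A1 call with dicoumarol was lost (adjusted p from 0.0516 to 0.139). The COL5A1 call with dicoumarol was lost without vehicle replicate 3 (0.0737) or any 1 dicoumarol library (0.0614 to 0.0707), and the COL3A1 call with magnolol without magnolol replicate 3 (0.0565). In DFAT cells myofibroblast markers also differed: their sum over 6 genes was 111673 ± 11245 (SD, n = 3) with vehicle, 126825 ± 8473 with dicoumarol, 158280 ± 6317 with magnolol, 180770 ± 9488 with both and 162345 ± 36682 with rosiglitazone. Of the 6 markers 2, 3, 5 and 2 rose in those 4 treated groups, where 0.911%, 2.96%, 6.11% and 5.8% of all genes rose. Fibroblast and preadipocyte markers, 9 of 10 with a row, summed to 613387 ± 15948 with vehicle and 582540 ± 5206 with dicoumarol. Their sum was 627971 ± 25617 with magnolol, 561251 ± 14763 with both and 535112 ± 17618 with rosiglitazone. Of the 8 tested 3, 3, 3 and 4 fell in those 4 treated groups and none rose. Of all genes 1.03%, 1.27%, 4.06% and 5.02% fell. The part of either marker list in the result was not tested.

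Of the 5 network chains tested in DFAT cells, none rose with dicoumarol and 1 rose with magnolol and with both (0.911%, 2.96% and 6.11% of all genes rose), while 2 fell with rosiglitazone (5.02% of all genes fell). The basement membrane pair COL4A1 and COL4A2 is transcribed head to head, with gene starts 193 bp apart in the pig table and models that overlap by 22 bp in the mouse table. COL4A1 (chr11:76858356-76997322, minus strand) gave 504863, 472765 and 431155 in the DFAT vehicle libraries, 491068, 475497 and 469387 with dicoumarol and 548652, 494070 and 569976 with magnolol. The other groups gave 516179, 490551 and 548025 with both and 550718, 446172 and 506238 with rosiglitazone. Every group overlapped vehicle, and the log2 fold changes ran from 0.03 with dicoumarol to 0.20 with magnolol, none called by limma (lowest adjusted p = 0.395, with magnolol). COL4A2 (chr11:76997516-77161614, plus strand) gave 406730, 377672 and 324625 with vehicle, 386759, 363420 and 357701 with dicoumarol and 434400, 381078 and 429399 with magnolol. Levels were 406152, 381904 and 413919 with both compounds and 435683, 333921 and 368890 with rosiglitazone. Its groups overlapped in the same way, and none of its changes passed.

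In 3T3-L1 cells Col4a1 (chr8:11248423-11362826, minus strand) gave 130483, 133633 and 113866 with vehicle, 131965, 126069 and 127056 with dicoumarol and 135346, 133901 and 128230 with magnolol. It gave 135100, 135055 and 112508 with the combination and 93763, 124786 and 101537 with rosiglitazone. Rosiglitazone replicates 1 and 3 were the lowest and replicate 2 lay among the vehicle values. Its change of -0.25 with rosiglitazone did not pass (limma, adjusted p = 0.1503), and it did without rosiglitazone replicate 2 (-0.37, adjusted p = 0.0296). Col4a2 (chr8:11362805-11499287, plus strand) gave 88521, 85640.4 and 66736 with vehicle, 87417, 82468 and 75529 with dicoumarol and 90173, 85851 and 75771 with magnolol. Values of 92572, 86964 and 66654 came with both and 58742, 81901 and 57319 with rosiglitazone. The same 2 rosiglitazone libraries were low, and the change of -0.29 did not pass (limma, adjusted p = 0.172), although it did with the replicate block (adjusted p = 0.0448) and without rosiglitazone replicate 2 (-0.46, adjusted p = 0.0296). The strand used in counting was not given in the sources used here, so reads where the mouse pair overlaps cannot be assigned.

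The ratio of 2 chains within a library does not depend on the scaling between libraries. COL4A1 over COL4A2 kept nearly the same log2 ratio in every group, with means between 0.35 and 0.40 in DFAT cells and between 0.65 and 0.70 in 3T3-L1 cells. COL1A1 over COL4A1, a fibrillar chain over a basement membrane chain, had a mean log2 ratio of 1.15 in DFAT vehicle libraries, 1.71 with dicoumarol, 1.81 with magnolol, 1.85 with both and 0.75 with rosiglitazone. No DFAT group overlapped vehicle in that ratio, with rosiglitazone alone below it. In 3T3-L1 cells its mean was -0.40 with vehicle and -0.69 with rosiglitazone, and the groups overlapped. COL3A1 over COL1A1 went from -0.98 in DFAT vehicle libraries to -1.32 with dicoumarol, -1.28 with magnolol and -1.28 with both. No test was run on these ratios.

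**Figure D4:**
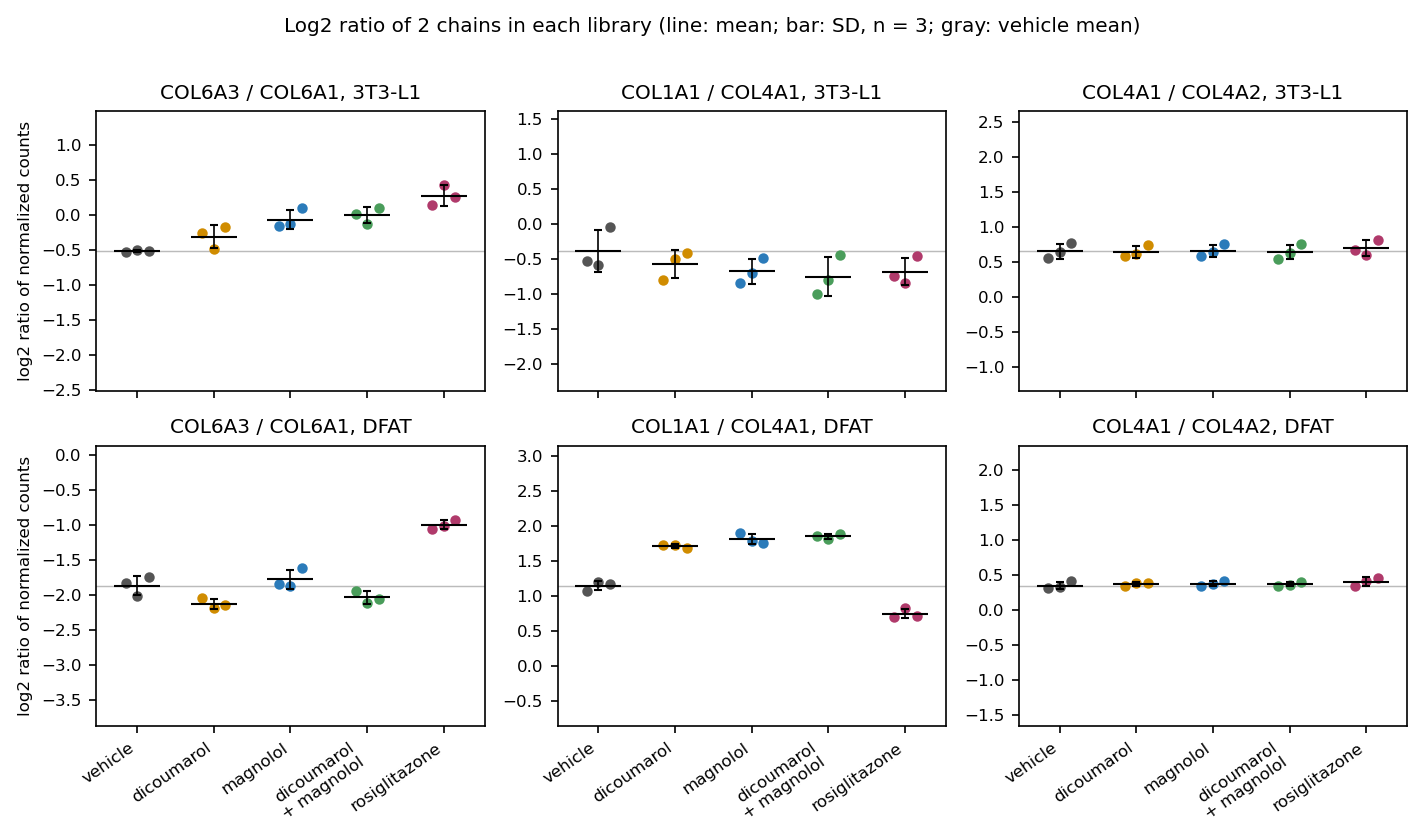
Points give the log2 ratio of normalized counts of 2 collagen chains in each library, for 3T3-L1 cells (upper panels) and DFAT cells (lower panels), with the group mean as a line, the SD as a bar (n = 3) and the vehicle mean in gray. COL6A3 over COL6A1 is highest with rosiglitazone in both systems, COL1A1 over COL4A1 differs between the DFAT groups, and COL4A1 over COL4A2 stays near the vehicle mean.

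Among the remaining network chains the type IV pair COL4A5 and COL4A6, 1432 bp apart on the porcine X chromosome, fell with rosiglitazone in DFAT cells. COL4A5 gave 3467, 3309 and 2855 with vehicle, 2787, 2801 and 2772 with dicoumarol and 3318, 3213 and 3799.6 with magnolol. Both compounds gave 3469, 3432 and 3753, and rosiglitazone gave 2035, 1786 and 1799. Rosiglitazone lay below all 12 other libraries, and dicoumarol lay just below vehicle. COL4A5 fell by 0.77 with rosiglitazone (limma, adjusted p = 2.61e-06). The scarcer COL4A6, named here after its values were seen, stood at 49.0, 36.4 and 39.7 with vehicle and 17.9, 8.56 and 13.2 with rosiglitazone, and fell by 1.63 (limma, adjusted p = 0.000692). In 3T3-L1 cells Col4a5 gave 4835, 7701 and 5195 with vehicle, 4413, 5987 and 5579 with dicoumarol and 4693, 6553 and 6888 with magnolol. It held 4842, 6078 and 5758 with both and 2973, 5005 and 4158 with rosiglitazone, where replicate 2 overlapped vehicle. Col4a5 fell by 0.55 (limma, adjusted p = 0.0425), and the call was lost without vehicle replicate 2 (0.221), rosiglitazone replicate 1 (0.220) or rosiglitazone replicate 3 (0.0646). Col4a6, Col4a3 and Col8a2 lay at or under 36.2 in every 3T3-L1 library and did not pass, except that Col4a6 fell with rosiglitazone under the replicate block (-1.03, limma adjusted p = 0.0345).

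COL8A1, the short-chain network collagen known from blood vessel walls and the cornea, was abundant in DFAT cells and scarce in 3T3-L1 cells. In DFAT cells it gave 16170.1, 16757 and 17152 with vehicle, 17601, 18802 and 18918 with dicoumarol and 25437, 23093 and 26912 with magnolol. Combination libraries gave 24500.4, 24432 and 29623 and rosiglitazone libraries 16950.3, 16934 and 18588. Magnolol and the combination stood above all other libraries. COL8A1 rose by 0.59 with magnolol and 0.64 with both (limma, adjusted p = 0.000124 and 2.14e-05). In 3T3-L1 cells Col8a1 gave 67.7, 89.0 and 60.4 with vehicle, 47.7, 50.5 and 42.9 with dicoumarol and 39.8, 54.8 and 65.5 with magnolol. It gave 45.6, 64.3 and 36.7 with both and 34.6, 43.5 and 38.3 with rosiglitazone. Dicoumarol and rosiglitazone lay wholly below vehicle, and Col8a1 fell by 0.87 with rosiglitazone (limma, adjusted p = 0.00873).

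The beaded chains of type VI parted from one another with rosiglitazone in both systems. COL6A3, whose product carries the endotrophin fragment at its end, rose, while COL6A1 did not pass against vehicle. In 3T3-L1 cells Col6a3 (chr1:90693645-90771693, minus strand) gave 59283, 64698 and 70687 with vehicle, 70299.5, 66625 and 90468 with dicoumarol and 76695, 82827 and 103676 with magnolol. The combination held 83392, 82053 and 94768 and rosiglitazone 78366, 111467 and 105436. All libraries of the last 3 groups lay above every vehicle library. Col6a3 rose by 0.59 with rosiglitazone (limma, SE 0.16, adjusted p = 0.00867). Its 0.43 with magnolol and 0.42 with both passed only with the replicate block (adjusted p = 0.0369 and 0.0193, against 0.340 and 0.173 without it). In DFAT cells COL6A3 (chr15:137011433-137103709, minus strand) gave 78951, 71179 and 69348 with vehicle, 83432, 68679.6 and 68559 with dicoumarol and 90864, 78365 and 101305 with magnolol. Next to 77663, 63424 and 73669 with both compounds stood 124039, 95330.1 and 116414 with rosiglitazone. Rosiglitazone lay wholly above vehicle and the combination, and COL6A3 rose by 0.61 (limma, adjusted p = 0.00188).

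COL6A1 itself gave 280157, 288477 and 232246 in DFAT cells with vehicle, 343570, 313062 and 303445 with dicoumarol and 324851, 285086 and 309983 with magnolol. Levels stood at 297214, 273998 and 305168 with both and 256515, 191614 and 220854 with rosiglitazone. Dicoumarol lay above vehicle and the rest overlapped it, with no call against vehicle. In 3T3-L1 cells Col6a1 gave 86236, 92163 and 101398 with vehicle, 84602, 93653 and 102668 with dicoumarol and 86302, 90564 and 97652 with magnolol. It gave 82875, 90041 and 88863 with both and 71262, 83111 and 88391 with rosiglitazone. All groups overlapped vehicle. Col6a2, its partner chain, gave 66140.3, 68409 and 79559 with vehicle, 65564, 73043 and 82279.6 with dicoumarol and 66399, 69528 and 76141 with magnolol. It held 64231, 72869.7 and 70709 with both and 62677, 73845 and 77133 with rosiglitazone. Its log2 fold changes against vehicle ran from -0.04 to 0.04, and none passed. The log2 ratio of COL6A3 to COL6A1 went from -0.52 ± 0.02 in 3T3-L1 vehicle libraries to -0.07 with magnolol, -0.01 with both and 0.27 ± 0.14 with rosiglitazone. In DFAT cells it went from -1.86 ± 0.14 with vehicle to -0.99 ± 0.06 with rosiglitazone, with -2.13, -1.77 and -2.03 in the other 3 groups.

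COL15A1, a proteoglycan of the basement membrane zone, was the chain that rose in the most vehicle comparisons. In DFAT cells COL15A1 (chr1:240709086-240829185, plus strand) gave 46373, 47778 and 48489 with vehicle, 63468, 68863 and 70135 with dicoumarol and 86470.1, 83566 and 98249 with magnolol. The combination gave 95325, 97256 and 115744 and rosiglitazone 83696, 75401 and 80744. All 12 treated libraries lay above the vehicle libraries. COL15A1 rose by 0.50 with dicoumarol, 0.91 with magnolol, 1.11 with both and 0.75 with rosiglitazone (limma, adjusted p = 0.00291, 2.62e-06, 9.23e-08 and 7.68e-06). In 3T3-L1 cells Col15a1 (chr4:47208161-47313167, plus strand) was far scarcer and gave 208, 218 and 146 with vehicle, 291, 253 and 166 with dicoumarol and 384, 306 and 257 with magnolol. It reached 469, 442 and 231 with both and 585, 742 and 419 with rosiglitazone. Replicate 3 was the lowest of each group, and the magnolol, combination and rosiglitazone libraries all lay above every vehicle library. Col15a1 rose by 1.59 with rosiglitazone (limma, SE 0.28, adjusted p = 0.000349). With the replicate block it also rose with magnolol (0.73, adjusted p = 0.00306, against 0.349 without) and with both (0.95, 0.000134, against 0.0637). Its sister multiplexin COL18A1, the source of endostatin, went the other way with rosiglitazone in both systems. Col18a1 gave 2783, 2201 and 2453 in 3T3-L1 cells with vehicle, 2469, 1917 and 2133 with dicoumarol and 2139, 1793 and 2127 with magnolol. Both compounds gave 2137, 1774 and 1505, and rosiglitazone 1304, 1615 and 998, all below vehicle. Col18a1 fell by 0.95 with rosiglitazone (limma, adjusted p = 0.000280), and its -0.47 with both compounds passed only with the replicate block (adjusted p = 0.0323). In DFAT cells COL18A1 gave 7101, 7035 and 5314 with vehicle, 6740.2, 5679.7 and 5731 with dicoumarol and 6494, 5101 and 5737 with magnolol. Levels of 5375, 4896 and 4677 with both and 5735, 3457 and 4165 with rosiglitazone completed the series, and rosiglitazone replicate 1 lay within the vehicle range. COL18A1 fell by 0.56 with rosiglitazone (limma, adjusted p = 0.0190). That call ended on leaving out vehicle replicate 1 (0.0937) or 2 (0.0911) and rosiglitazone replicate 2 (0.0784) or 3 (0.0687).

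The fibril-associated chain COL12A1, a bridge between fibrils in tendon and muscle, fell with rosiglitazone in 3T3-L1 cells and rose with magnolol and with the combination in DFAT cells. In 3T3-L1 cells Col12a1 (chr9:79506273-79626113, minus strand) gave 7177, 8555 and 7142 with vehicle, 6004, 6019 and 8030.4 with dicoumarol and 5011, 6058 and 8153 with magnolol. It gave 4592, 5189 and 6222 with both and 1274, 3144 and 2281 with rosiglitazone. The rosiglitazone libraries lay below all 12 others, and the combination below vehicle. Col12a1 fell by 1.86 with rosiglitazone (limma, SE 0.25, adjusted p = 3.06e-05). In DFAT cells COL12A1 gave 32186, 28267 and 30500.5 with vehicle, 35303, 35848 and 35848 with dicoumarol and 48759, 43359 and 61351 with magnolol. Combined treatment gave 53483, 49982 and 67254, and rosiglitazone 34752, 32318 and 33892. All 12 treated libraries lay above vehicle, and COL12A1 rose by 0.74 with magnolol and 0.90 with both (limma, adjusted p = 0.000562 and 3.12e-05).

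COL14A1, another fibril-associated chain that binds the proteoglycan decorin, was the 1 DFAT chain that fell with the combination. COL14A1 (chr4:18690198-18924971, minus strand) gave 31060.5, 32459 and 33308 with vehicle, 28662, 31846 and 32501 with dicoumarol and 24182, 26108 and 33047 with magnolol. It gave 22147, 23056 and 28973 with both and 14852, 13502 and 14193 with rosiglitazone. Rosiglitazone lay below all 12 other libraries, and the combination below vehicle. COL14A1 fell by 1.19 with rosiglitazone (limma, adjusted p = 5.26e-07) and by 0.39 with both (adjusted p = 0.0240). The latter call was lost without vehicle replicate 2 (0.0582) or 3 (0.0808) and without combination replicate 1 (0.114) or 2 (0.0897).

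COL16A1, which sits on fibrils and microfibrils, gave 2418, 2308 and 2080.4 in DFAT cells with vehicle, 3573, 3193 and 3078 with dicoumarol and 3407, 2838 and 3276 with magnolol. The last 2 groups gave 3493, 3009 and 3493 with both and 2031, 1544 and 1840.4 with rosiglitazone. Rosiglitazone lay below vehicle and the other groups above it. COL16A1 rose by 0.53, 0.48 and 0.55 with dicoumarol, magnolol and both (limma, adjusted p = 0.00668, 0.00742 and 0.00122). Its call with dicoumarol was lost without dicoumarol replicate 1 (0.0539), and that with magnolol without magnolol replicate 1 (0.0502). It fell by 0.34 with rosiglitazone (adjusted p = 0.0375). That last call ended on leaving out vehicle replicate 1 (0.155) or 2 (0.113) and rosiglitazone replicate 2 (0.138) or 3 (0.0723). In 3T3-L1 cells Col16a1 gave 2084, 2235 and 2908 with vehicle, 1774, 2349 and 2869.9 with dicoumarol and 1825, 2092 and 2564 with magnolol. Its values were 1625, 2063 and 2201 with both and 1252, 1581 and 1503 with rosiglitazone, the latter below all 12 others. Col16a1 fell by 0.73 with rosiglitazone (limma, adjusted p = 0.00412). Its -0.29 with both compounds passed only with the replicate block (limma, adjusted p = 0.0318).

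Col28a1, a chain found around peripheral nerves, showed the largest fall of any 3T3-L1 chain and is named here after its values were seen, since its mean was under 100. Col28a1 (chr6:7997808-8192617, minus strand) gave 102, 184 and 145 with vehicle, 87.5, 129 and 126 with dicoumarol and 107, 120.2 and 89.9991 with magnolol. It gave 85.2, 63.3 and 100.3 with both and 26.2, 26.1 and 44.5 with rosiglitazone, the lowest of the 15 libraries. Col28a1 fell by 2.12 (limma, adjusted p = 1.41e-05), and its -0.77 with both compounds passed only with the replicate block (adjusted p = 0.0393). The transmembrane chain Col23a1, with 57.9, 71.0 and 102 in the vehicle libraries and 31.5, 40.2 and 46.9 with rosiglitazone, fell by 0.92 (limma, adjusted p = 0.0225), and the call was lost without vehicle replicate 3 (0.102) or rosiglitazone replicate 1 (0.0920). Col20a1, Col17a1, Col7a1 and Col9a3 did not pass against vehicle, and neither did COL23A1 and COL26A1 in DFAT cells. Col7a1 passed with rosiglitazone under the replicate block (0.58, limma adjusted p = 0.0378) and without rosiglitazone replicate 2 (1.00, adjusted p = 0.000961). All 4 mouse chains stayed at or under 246 and both porcine chains at or under 56.2. In 3T3-L1 cells 14 of 15 adipocyte markers had a mean of at least 10. All 14 rose with rosiglitazone, where 20.3% of all genes rose. The sum of fibroblast markers ran from 111732 to 128379 with rosiglitazone against 171662 to 190322 with vehicle. The part of both marker lists in the falls of the collagen chains was not tested.

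The combination was also set against each of its compounds. Against dicoumarol alone, 5 of 23 chains rose with the combination, where 2.35% of all genes were called (2% higher, 0.344% lower): COL11A1 by 0.93, COL12A1 by 0.66, COL15A1 by 0.60, COL8A1 by 0.50 and COL4A5 by 0.35 (limma, adjusted p = 0.000128, 0.00227, 0.000335, 0.000878 and 0.0238). The COL4A5 call was lost with equal totals (0.24, 0.101), without dicoumarol replicates 1, 2 or 3 (0.1002, 0.0827 and 0.0918) and without combination replicates 1 or 3 (0.0587 and 0.126). With every library scaled to the same total 4 chains rose and COL14A1 fell, and with quantile normalization 5 rose and 1 fell. Shares of all genes under these settings are not given here. Against magnolol alone no chain passed in limma (0.621% of all genes called), with 4 chains at an unadjusted p under 0.05. Same-numbered libraries of these 2 groups correlated in their deviations by 0.118 to 0.345, and with the replicate block 2 chains passed. Shares of all genes under that block are not given here for DFAT cells. No chain passed for the interaction of the 2 compounds (0.081% called). Of the 23 chain estimates 20 lay below 0, and 7 had an unadjusted p under 0.05 in limma. The median was -0.28 for the chains and 0.0004 for all genes. The share of all genes at an unadjusted p under 0.05 was not counted, so these chain counts have no background. In 3T3-L1 cells no chain passed in the combination against dicoumarol (0.0254% called), against magnolol (0% called) or in the interaction (0% called). With the block Col15a1 rose by 0.66 in the combination against dicoumarol (adjusted p = 0.00972), where 3.62% of all genes were called, 2.49% higher and 1.13% lower.

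Rosiglitazone and the combination were set against each other directly. In DFAT cells 17 of 23 chains were lower and 1 higher with rosiglitazone, where 17% of all genes were called, 8.24% higher and 8.79% lower. The fibrillar class gave 8 of 9 lower. COL11A1 had the largest log2 difference at -1.60, followed by COL4A6 at -1.45, COL26A1 at -1.27 and COL1A1 at -1.16 (limma, adjusted p = 1.65e-07 for COL11A1 and 1.22e-05 for COL1A1). COL1A2 and COL3A1 stood at -0.94 and -0.92, and COL6A1 at -0.40 (adjusted p = 0.0242). The COL6A1 call was lost without combination replicate 1 (0.0719) or 3 (0.0746), without rosiglitazone replicate 2 (0.0967) or 3 (0.0613), and with equal totals (-0.22, 0.113), no filter (0.0821) or only the groups compared (0.107). COL15A1, higher than vehicle in both groups, stood at -0.36 with rosiglitazone against the combination (adjusted p = 0.00693). That call was lost with equal totals (-0.18, 0.0518), quantile normalization (-0.15, 0.233) or only the groups compared (0.0635). The 1 higher chain was COL6A3, by 0.64 (adjusted p = 0.000943). Quantile normalization left 2 chains higher and 11 lower here, with no share of all genes given for that setting. It ended the limma calls of COL1A1 (-0.32, adjusted p = 0.1297), COL1A2 (-0.32, 0.0686), COL5A1 (-0.15, 0.266) and COL5A2 (-0.20, 0.0621). In 3T3-L1 cells 3 chains were lower with rosiglitazone than with the combination and none higher (18.3% of all genes called, 9.53% higher and 8.78% lower): Col28a1 at -1.36, Col12a1 at -1.34 and Col5a1 at -0.34 (limma, adjusted p = 0.00376, 0.00311 and 0.0425). With the replicate block 10 were lower and 2 higher, the latter Col5a3 and Col15a1, where 33.3% of all genes were called (16.1% higher, 17.2% lower). The Col5a1 call was lost without any 1 combination library (adjusted p from 0.0875 to 0.107) and without rosiglitazone replicate 1 (0.200) or 3 (0.0577).

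Genes that make and finish collagen were taken from a list of 37, of which 35 were tested in each system. They hydroxylate the chains (prolyl hydroxylases P4HA1, P4HA2 and P4HA3, lysyl hydroxylases PLOD1 and PLOD2), fold and carry them (the chaperone SERPINH1), trim them (BMP1, ADAMTS2, ADAMTS14, the enhancer PCOLCE) and cross-link them (LOX and its relatives). In DFAT cells 4 rose with dicoumarol (0.911% of all genes rose), 14 with magnolol (2.96%) and 17 with both (6.11%), while 2 fell with both (4.06% of all genes fell). Rosiglitazone raised 3 and lowered 6, where 5.8% of all genes rose and 5.02% fell. Magnolol raised the cross-linking enzyme LOXL4 by 1.07, the propeptidase ADAMTS14 by 0.92 and the prolyl 3-hydroxylase P3H2 by 0.77 (limma, adjusted p = 1.11e-06, 0.00460 and 0.00554). SERPINH1, the collagen chaperone, rose by 0.43 with magnolol and 0.45 with both (limma, adjusted p = 0.00742 and 0.00314), and gave 17318, 17889 and 14271 with vehicle, 23187, 22818 and 20549 with magnolol and 22403, 22584 and 22071 with both. P4HA1 rose by 0.27 with magnolol and P4HA2 by 0.37. Equal totals ended the magnolol calls of SERPINH1 (0.29, adjusted p = 0.0576) and P4HA1 (0.128, 0.0990). Dicoumarol raised LOXL3 by 0.45, LOXL4 by 0.43, the transcription factor CREB3L1 by 0.38 and the collagen galactosyltransferase COLGALT1 by 0.25. The calls of LOXL4, CREB3L1 and COLGALT1 with dicoumarol were lost with equal totals (adjusted p = 0.0512, 0.152 and 0.163). Each was also lost without vehicle replicate 3 or dicoumarol replicate 1 or 2 (0.0987 to 0.113, 0.0801 to 0.117 and 0.0717 to 0.0801), CREB3L1 also without vehicle replicate 1 (0.0940) or dicoumarol replicate 3 (0.0683), and COLGALT1 without dicoumarol replicate 3 (0.0606). With both compounds ADAMTS14 rose by 1.27, LOXL4 by 1.26 and LOXL3 by 0.86, and PPIB and PCOLCE2 fell by 0.25 and 0.21. The PCOLCE2 call was lost without vehicle replicate 1 (0.0544) or combination replicate 1 (0.0637). With rosiglitazone LOXL4 and P4HA2 rose by 0.86 and 0.27 (the latter call lost with only the groups compared, 0.0518), and LOXL1 fell by 0.42. P4HB, PLOD1, PLOD2 and BMP1 did not pass in any DFAT vehicle comparison.

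In 3T3-L1 cells 19 of the 35 fell with rosiglitazone and 2 rose, where 19.9% of all genes fell and 20.3% rose. Lox, the enzyme that starts cross-linking, gave 83291, 122244 and 88877 with vehicle and 17075, 32130.1 and 35619.6 with rosiglitazone, with no overlap, and fell by 1.84 (limma, adjusted p = 2.71e-05). P4ha3 fell by 1.93 and Tll1, a procollagen protease, by 1.78 (limma, adjusted p = 3.19e-06 and 0.000245). Smaller falls were those of P4ha2 by 0.56, P4ha1 by 0.51 and Bmp1 by 0.42. Loxl1 and Mia2 rose by 0.26 and 0.24, and both calls were lost with equal totals (0.136 and 0.1296) and without vehicle replicate 1 (0.0543 and 0.0727) or rosiglitazone replicate 2 (0.0764 and 0.0654). The Loxl1 call was also lost without vehicle replicate 2 (0.1204) or rosiglitazone replicate 3 (0.0733), and the Mia2 call without vehicle replicate 3 (0.0540). No gene of the list passed with dicoumarol or magnolol, and 3 fell with both (5.22% of all genes called): P4ha3 by 0.94, Adamts2 by 0.60 and Creb3l1 by 0.39 (limma, adjusted p = 0.0121, 0.0244 and 0.0429). The Adamts2 call was lost without vehicle replicate 2 (0.0816) or 3 (0.0920) or combination replicate 1 (0.153), and the Creb3l1 call without vehicle replicate 1 (0.0579) or 3 (0.179) or any 1 combination library (0.0735 to 0.209). With the replicate block the processing and receptor genes together gave 1 higher and 5 lower with magnolol and 1 higher and 13 lower with both. With rosiglitazone the block gave 4 higher and 28 lower. Of all genes 3.52%, 8.03% and 24.4% were higher under the block in those 3 comparisons, and 1.44%, 5.48% and 25.4% were lower. The list's median log2 fold change was -0.39 with rosiglitazone in 3T3-L1 cells, and 0.28 with magnolol and -0.07 with rosiglitazone in DFAT cells, where the median of all genes was within 0.011 of 0. Rosiglitazone set against the combination left 12 of the 35 lower in 3T3-L1 cells and 20 lower in DFAT cells, with none higher (8.78% and 8.79% of all genes were lower).

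Receptors that bind or take up collagen came from a list of 11 genes, of which 7 were tested in 3T3-L1 cells and 9 in DFAT cells. In DFAT cells none passed with dicoumarol, and 7 of 9 rose with magnolol and 7 of 9 with both, where 2.96% and 6.11% of all genes rose. ITGA1 and ITGB1, the chains of the integrin that binds collagens I and IV, rose by 0.54 and 0.53 with magnolol and by 0.69 and 0.67 with both (limma, adjusted p = 0.0378, 0.0283, 0.00336 and 0.00267). With magnolol the ITGA1 call was lost without vehicle replicate 1 or 2 or magnolol replicate 2 or 3 (0.0688 to 0.188), and the ITGB1 call without vehicle replicate 1 or 2 or magnolol replicate 1 or 3 (0.0555 to 0.151). With rosiglitazone the type III collagen receptor ADGRG1 rose by 0.48 and the uptake receptor MRC2 fell by 0.47 in DFAT cells. In 3T3-L1 cells rosiglitazone lowered 5 of 7, where 19.9% of all genes fell, with Itga1 falling by 1.12 and the collagen-sensing kinase Ddr2 falling by 0.94 (limma, adjusted p = 0.000923 and 4.69e-05). With every library scaled to the same total, the processing and receptor genes of DFAT cells gave 12 higher and 2 lower with magnolol (21 and 0 as fitted) and 14 higher and 5 lower with both (24 and 2). The same scaling gave 1 higher and 2 lower with dicoumarol (4 and 0) and, for rosiglitazone against the combination, 5 higher and 15 lower (0 and 25). Shares of all genes under equal totals are not given here. Adgrg1 rose in 3T3-L1 cells, by 1.1996 with rosiglitazone and 1.05 with both. The latter call was lost without vehicle replicate 2 (0.1002) or 3 (0.128) or combination replicate 1 (0.178) or 2 (0.0717).

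**Figure D5:**
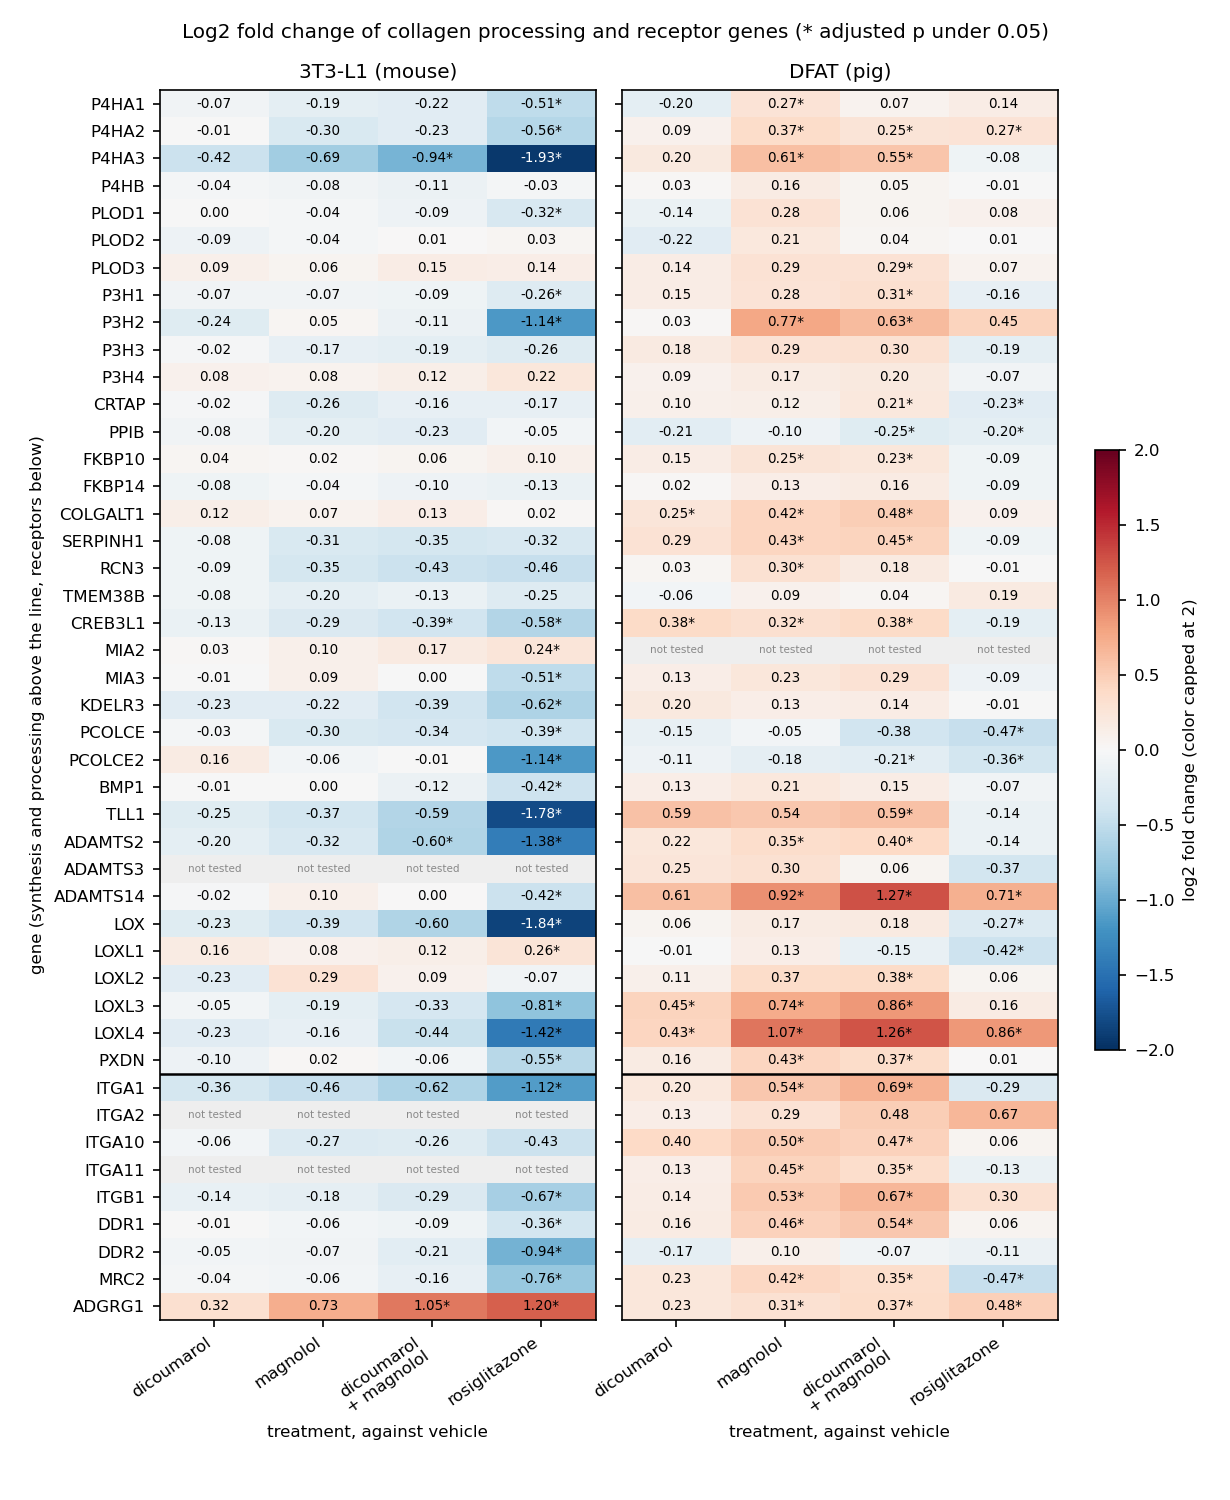
Each cell gives the log2 fold change against vehicle in limma of a gene for collagen synthesis and processing (above the line) or a collagen receptor (below it), for 4 treatments in 3T3-L1 and DFAT cells; asterisks mark an adjusted p under 0.05 and the color is capped at 2. The 3T3-L1 rosiglitazone column holds 19 lowered processing genes, and the DFAT magnolol and combination columns hold 14 and 17 raised ones.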

How the data were processed

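Bulk RNA was sequenced from 15 libraries of mouse 3T3-L1 cells and 15 of porcine DFAT cells, 3 in each of 5 groups per system, taken on day 5. The labels' protocols describe strand-marked libraries, and the submitters' processing notes name bcl2fastq 2.19.1.403, STAR, DESeq2 and the build GRCm38, with no role stated. The deposited tables, 1 per system, hold a signal that the authors made by dividing each gene's count by a size factor per library. Neither the strand used in counting nor the porcine build is given in the sources used here. The deposited mouse gene starts equal those of GENCODE M21 in 3 of 41 members, so gene positions are given as deposited and promoters, on GRCm38.p6, separately.

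From low values, size factors ran from 0.810 to 1.17 in 3T3-L1 and from 0.780 to 1.18 in DFAT libraries. Only 81.5% to 82.7% and 89.8% to 91.0% of low values came out as whole reads within a tolerance of 0.02, up to 20 reads, so no count test was run. limma 3.58.1 (R 4.3.3) was fitted to log2(value + 1) with a variance trend, all 5 groups of a system in 1 model, for the 15723 (3T3-L1) and 14819 (DFAT) genes with a mean of at least 10. Tests were two-sided, with Benjamini-Hochberg adjustment over all genes of a system at 0.05. Fold changes are on that log2 scale, which understates changes of scarce genes. The script was tested on simulated data. Tables and figures were made with Python 3.11.15, numpy 2.4.6, pandas 2.3.3 and matplotlib 3.10.9.

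Values in every library are given for 16 chains of types I, III, IV, V, VI, VIII, XII, XIV, XV and XVIII and for called chains with a mean of at least 100 and the 5 largest changes per vehicle comparison. The members and all gene lists were chosen with earlier results of these data known. Alternatives were quantile normalization, equal totals, pseudocounts of 0.5 and 5, no filter, no trend, only the groups compared, a replicate block and leaving out each library. Equal totals over genes other than collagen chains, and all alternatives for single chains in comparisons between treatments, were added after seeing the data.

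In 3T3-L1 cells all 30 pairs of libraries with the same replicate number correlated above 0.1 in their deviations from group means (0.106 to 0.462, median 0.300, against a median of -0.142 in 60 other pairs), and the numbers were taken to pair libraries there. In DFAT cells 16 of 30 did (-0.306 to 0.345), with every pair above 0.1 only among the magnolol, combination and rosiglitazone groups.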

Additional observations from a re-analysis of the deposited data

Results flagged for a closer look

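For 10 chains every treated 3T3-L1 library lay below the 3T3-L1 vehicle mean while every DFAT library with the same treatment lay above the DFAT vehicle mean, in 22 pairs of chain and treatment. Of the 20 chains tested in both systems 5 did so with dicoumarol, 4 with magnolol, 9 with both compounds and 4 with rosiglitazone, and none the opposite way. Of the 9371 genes tested in both systems 3.89%, 5.4%, 8.79% and 8.53% did so in those treatments, and 5.09%, 7.4%, 10.4% and 6.8% the opposite way. The values are log2 fold changes against vehicle, 3T3-L1 first; the differences between the systems were not tested, and species, medium and starting cell differ together.

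COL11A1 gave -0.20 and 0.95 with dicoumarol, -0.16 and 1.42 with magnolol, -0.29 and 1.89 with both compounds, and -0.58 and 0.28 with rosiglitazone. COL8A1 also did so with all 4 treatments, with -0.60 and 0.14, -0.44 and 0.59, -0.58 and 0.64, and -0.87 and 0.0664 in that order. The type I chains did so with dicoumarol, magnolol and both: COL1A1 with -0.15 and 0.59, -0.21 and 0.86, and -0.35 and 0.85, and COL1A2 with -0.11 and 0.40, -0.17 and 0.70, and -0.28 and 0.68. COL3A1 gave -0.17 and 0.26 with dicoumarol and -0.285 and 0.55 with both.

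With both compounds COL5A2 gave -0.16 and 0.56, COL16A1 -0.29 and 0.55, COL6A1 -0.0938 and 0.135, and COL12A1 -0.52 and 0.90. With rosiglitazone COL12A1 gave -1.86 and 0.15 and COL5A1 -0.35 and 0.30. Scaling each library to the same total or by quantiles moves the DFAT values of the abundant chains, as given for COL1A1, COL1A2 and COL3A1 under quantile normalization.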

How the results depend on the processing

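Of the 208 values of a tested chain against vehicle 50 were called, and both pseudocounts kept every call. Calls were lost or gained as follows: no filter lost 7, no variance trend lost 4 and gained 5, only the groups compared lost 7 and gained 6, equal totals gained 6, equal totals of the other genes gained 5, and quantile normalization lost 10, of which 3 had the opposite sign, and gained 4. Quantile normalization called 6 chains in 3T3-L1 cells for rosiglitazone against the combination (3 as reported), 3 in DFAT cells with dicoumarol (5) and 7 with magnolol (11), and no filter called 3 with dicoumarol. It gave COL3A1 -0.0082 with magnolol, COL1A2 -0.14 and COL3A1 -0.0927 with both, and COL6A1 0.0163 and COL4A1 0.32 for rosiglitazone against the combination. Equal totals gave PLOD2 0.15 in that last DFAT comparison. Only the groups compared called 1 chain in 3T3-L1 cells with both compounds (0 as reported). The cause was not tested. Shares of all genes are given for the fit as reported and for the 3T3-L1 replicate block only. Counts under the other settings thus have no background here. Equal totals moved the median of all DFAT genes by -0.145 with magnolol, -0.174 with both, -0.122 for the combination against dicoumarol and 0.182 for rosiglitazone against the combination. Over nuclear protein-coding genes alone the collagen share was 3.79%, 3.73%, 3.77%, 3.60% and 3.24% in 3T3-L1 cells and 7.84%, 9.74%, 11.0%, 10.8% and 7.18% in DFAT cells (vehicle, dicoumarol, magnolol, both, rosiglitazone).

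With the replicate block, 3T3-L1 cells gave 2 called chains with magnolol, 6 with both, 1 for the combination against dicoumarol and 12 for rosiglitazone against the combination. DFAT cells gave 11 with rosiglitazone, 8 for the combination against dicoumarol and 2 against magnolol. There the numbers mark no shown pairing outside the magnolol, combination and rosiglitazone groups. Over the 208 values the block kept all 50 calls and gained 25.

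Leaving out 1 library at a time gave 0 to 1 called chains in 3T3-L1 cells with both compounds (1 without combination replicate 3) and 2 to 12 for rosiglitazone against the combination (12 without rosiglitazone replicate 2). In DFAT cells it gave 2 to 4 with dicoumarol (2 without dicoumarol replicate 1) and 0 to 1 for the combination against magnolol (1 without magnolol replicate 3). The other counts ran from 11 to 19 for 3T3-L1 rosiglitazone, and in DFAT cells from 10 to 11 with magnolol, 11 to 12 with both, 5 to 7 with rosiglitazone and 17 to 19 for rosiglitazone against the combination. COL16A1 and COL18A1 in DFAT rosiglitazone libraries also lost their calls with no filter (0.102 and 0.0764) and with only the groups compared (0.0943 and 0.0693), and COL14A1 with both compounds lost its call with no filter (0.0768) or no trend (0.0652), all limma adjusted p. Counts near the filter of 10 and single-library shifts limit what 3 libraries per group can show.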
